A study of Mus musculus with 20 samples.

Results

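Fatty acid oxidation was described here through 36 genes of mouse liver: the genes that activate fatty acids and carry them into mitochondria and peroxisomes, the enzymes of the oxidation spiral in each organelle, and the enzymes that serve them. The genes were chosen by name from what is known of the pathway, with earlier results of these data also known. A gene was followed where a probe set with values on the arrays named it and no other gene, which held for 34 of the 36, with 1 probe set each, out of 19661 genes measured in this way. Acsl1 and Hadhb are not analysed here: the annotation used gave no probe set named Acsl1, and the 2 probe sets of Hadhb held no value on any array. By compartment, 17 of the 34 genes were counted as mitochondrial, 13 as peroxisomal and 4 (Acad11, Eci2, Ech1 and Crat) as belonging to both organelles. By role, 10 act in activation and transport, 15 in the oxidation spiral, 5 as auxiliary enzymes for unsaturated fatty acids, 3 in electron transfer and 1 in the division of peroxisomes.

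The livers came from untreated mice of 2 genotypes, wild-type (WT) and Crem-/- (KO), both 8 weeks old and of mixed background (129Pas x C57Bl/J). Mice were killed when the light came on (0 h) or when it went off (12 h), with food always present, and each of the 4 groups held 5 mice with 1 array each. The null allele is present in the whole animal and not in liver alone. Values are log2 array signals of whole-liver RNA. A difference of 1 between groups is thus a doubling, and levels of different genes are not compared. In such bulk RNA, fewer cells of a type and less RNA per cell cannot be told apart. A gene was called where its adjusted p from the limma fit over all 25689 probe sets was under 0.05. All mice of the 12 h groups lie in 1 labelled batch and all mice of the 0 h groups in 4 other batches, so that time and batch cannot be told apart, whereas each of the 5 batches held both genotypes.

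Mitochondria burn most long-chain fatty acids. An acyl-CoA is handed to carnitine by CPT1 on the outer membrane, crosses the inner membrane through the carnitine-acylcarnitine carrier (Slc25a20), is returned to CoA by CPT2, and is then shortened in repeated rounds of dehydrogenation, hydration, a second dehydrogenation and thiolysis, whose electrons pass through the electron transfer flavoprotein into the respiratory chain. Peroxisomes take up very-long-chain and branched fatty acids and bile acid precursors through ABCD transporters, begin their oxidation with an oxidase that forms hydrogen peroxide, and hand shortened chains on as carnitine esters through Crot and Crat. Many of these genes are targets of the fatty acid receptor PPAR alpha, which binds repeats of AGGTCA spaced by a single base (DR1). CREM belongs to the family of cAMP-responsive factors that bind the cAMP response element (CRE), and liver gene activity for fat oxidation follows the daily cycle of feeding and fasting.

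The arrays had medians of 7.07 to 7.24 and correlations between pairs of 0.969 to 0.994. Their medians did not overlap between the times, with 7.18 to 7.24 at 0 h and 7.07 to 7.17 at 12 h. Crem itself read 8.11 to 8.54 in WT and 7.43 to 8.17 in KO mice at 0 h, and 7.90 to 8.02 in WT and 7.39 to 7.83 in KO mice at 12 h. The genotypes overlapped in Crem at 0 h, where KO mouse 1 (8.17) lay above WT mouse 80 (8.11), and did not overlap at 12 h. Over both times Crem was lower in KO by a log2 difference of -0.42 ± 0.082 (SE), which limma did not call (adjusted p = 0.135), and whether its probe set lies in the deleted part of the gene was not tested. The mean level of 9 measured hepatocyte markers stayed between 13.51 and 13.66 in every mouse, and the same mean ran from 6.15 to 6.71 for 6 fat cell markers and from 6.32 to 6.71 for 4 pancreas markers.

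Sequences upstream of 5 genes are given to show the letters from which CRE-like and DR1-like matches were read. They are RefSeq windows on GRCm38.p6, from 250 bases before the start site to 30 bases after it, written 5′ to 3′ on the strand of the gene. Capitals mark matches to the CRE core TGACG or to a DR1, taken as AGGTCA, any base, AGGTCA with at most 2 mismatches, on either strand. Cpt1a and Crot are shown as the genes with the largest called time differences relative to their error, Slc25a20 and Acox2 for their DR1-like match, and Acadm for a CRE core just before its start site.
Cpt1a (chr19:3323051-3323330, plus strand): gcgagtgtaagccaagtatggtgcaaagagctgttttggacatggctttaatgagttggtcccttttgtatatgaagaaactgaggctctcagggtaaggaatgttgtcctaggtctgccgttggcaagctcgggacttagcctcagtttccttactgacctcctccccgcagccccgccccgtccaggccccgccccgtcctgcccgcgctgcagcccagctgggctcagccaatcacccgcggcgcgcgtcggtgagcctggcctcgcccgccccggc
Crot (chr5:8997117-8997396, minus strand): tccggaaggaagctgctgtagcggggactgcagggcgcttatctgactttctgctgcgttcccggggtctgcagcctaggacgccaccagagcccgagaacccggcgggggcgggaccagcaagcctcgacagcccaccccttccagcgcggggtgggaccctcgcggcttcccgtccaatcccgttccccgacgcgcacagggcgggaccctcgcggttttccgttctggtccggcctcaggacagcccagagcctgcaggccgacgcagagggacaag
Slc25a20 (chr9:108661886-108662165, plus strand): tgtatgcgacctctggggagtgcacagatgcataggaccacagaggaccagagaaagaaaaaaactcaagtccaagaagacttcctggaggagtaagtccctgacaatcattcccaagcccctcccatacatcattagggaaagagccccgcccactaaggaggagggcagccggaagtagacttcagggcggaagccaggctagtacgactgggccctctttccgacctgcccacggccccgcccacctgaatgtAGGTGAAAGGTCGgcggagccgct
Acox2 (chr14:8258810-8259089, minus strand): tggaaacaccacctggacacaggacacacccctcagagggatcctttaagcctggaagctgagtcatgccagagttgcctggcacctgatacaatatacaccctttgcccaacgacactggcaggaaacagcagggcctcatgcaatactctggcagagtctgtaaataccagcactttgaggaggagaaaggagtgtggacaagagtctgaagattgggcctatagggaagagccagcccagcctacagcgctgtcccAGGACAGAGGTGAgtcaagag
Acadm (chr3:153944614-153944893, minus strand): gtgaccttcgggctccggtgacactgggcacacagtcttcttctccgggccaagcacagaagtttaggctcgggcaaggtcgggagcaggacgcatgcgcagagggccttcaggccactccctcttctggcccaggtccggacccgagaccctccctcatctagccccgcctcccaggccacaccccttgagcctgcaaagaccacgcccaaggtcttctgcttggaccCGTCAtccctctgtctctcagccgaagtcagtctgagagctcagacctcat
Windows of 300 bases (250 before and 50 after the start site) were found for 29 of the 34 genes, 31 windows in all, and none for Acaa2, Decr1, Hsd17b4, Crat and Abcd2. The CRE core was present at 8 genes (Acadm, Acad11, Etfa, Etfdh, Acox2, Ehhadh, Scp2 and Abcd3), that is in 25.8% of their windows against 20.8% of all 32851 windows. A DR1-like match was found at Slc25a20, Echs1, Etfa and Acox2, in 12.9% of windows against 3.86% of all. The full CRE TGACGTCA, which contains the core on each strand, and the E-box CACGTG, which clock factors bind, were found in none of these windows, against 1.79% and 7.15% of all windows. The windows of Cpt1a and Crot held no match to any of the 4 motifs, which says only that these letters are not in these bases.

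Between the 12 h and 0 h livers, genes of the pathway differed in both directions, also within the same step. Averaged over the genotypes, 10 of the 34 genes were higher at 12 h (18.1% of all probe sets were) and 8 were lower (21.2% of all), while 16 were not called. Cpt1a, Abcd2, Eci2, Acadl, Abcd3, Pex11a, Decr2, Slc27a2, Hadha and Acad11 were the higher genes, and Crot, Acox2, Acsl5, Crat, Scp2, Ehhadh, Etfb and Acaa2 the lower ones. The median log2 difference of the 34 genes was -0.011, and it became 0.026 after quantile normalization and 0.062 after each array was centred on its median. With that centring, which raises every 12 h minus 0 h difference by 0.073, 13 genes were higher (26.1% of all probe sets) and 6 lower (12% of all): Cpt2, Acads and Acaa1a joined the higher genes, and Ehhadh and Acaa2 were no longer called. In WT mice alone 7 genes were higher (13.5% of all probe sets) and 6 lower (14.3%), and in KO mice 8 were higher (10.6%) and 6 lower (9.69%). After centring these became 11 higher and 1 lower in WT (20.6% and 7.77% of all) and 9 higher and 4 lower in KO mice (14.3% and 6.24% of all). The count in KO mice fell from 14 to 9 without KO mouse 143 of 0 h and also without KO mouse 109 of 12 h. As each mouse was left out, 4463 to 5472 of all 25689 probe sets were called in KO mice.

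**Figure D1:**
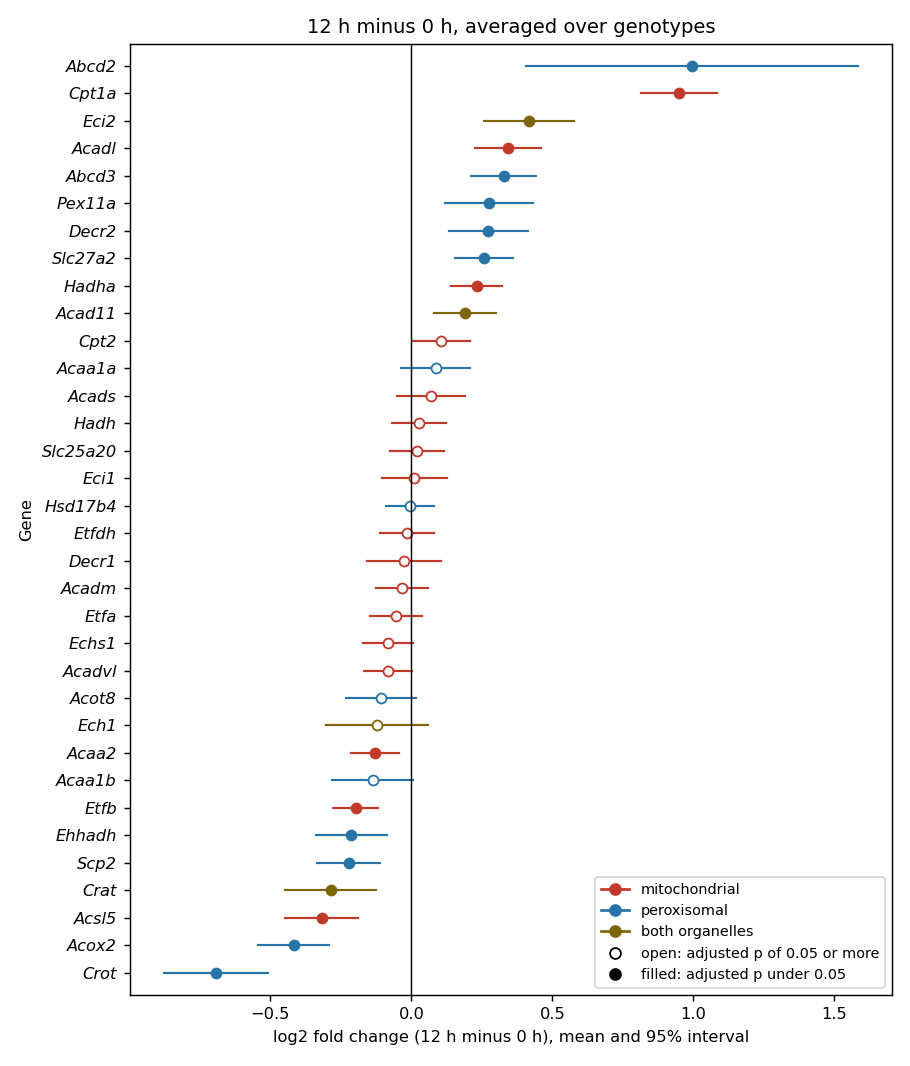
Difference between 12 h and 0 h (log2 fold change, averaged over genotypes; 10 mice at each time) for each of the 34 genes, with its 95% interval from limma. Colours give the compartment and filled points the genes with an adjusted p under 0.05, from Crot at -0.69 to Abcd2 at 0.99.

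At the entry to mitochondria the RNA of Cpt1a rose, and those of the carrier and of CPT2 were not called. Cpt1a, the carnitine palmitoyltransferase that sets the rate of mitochondrial uptake, read 11.13, 11.14, 11.22, 11.24 and 11.50 in WT and 10.76, 10.84, 10.96, 11.01 and 11.07 in Crem-/- mice at 0 h, and 11.91, 11.99, 12.00, 12.16 and 12.31 in WT and 11.78, 12.00, 12.04, 12.07 and 12.13 in Crem-/- mice at 12 h. Every 12 h mouse of a genotype lay above every 0 h mouse of it. The log2 difference was 0.95 ± 0.065 (SE; a 1.93-fold higher level; adjusted p = 2.61e-10), made up of 0.83 in WT and 1.07 in KO mice. Cpt2, which works on the inner side, differed by 0.11 ± 0.049 (adjusted p = 0.0902) and was called only after centring (0.18, adjusted p = 0.00661). Slc25a20, the carrier between the enzymes, differed by 0.020 ± 0.046 (adjusted p = 0.758). Acsl5, a long-chain acyl-CoA synthetase, went the other way and read 12.05, 12.18, 12.30, 12.32 and 12.35 in WT and 12.15, 12.26, 12.27, 12.36 and 12.48 in Crem-/- mice at 0 h, and 11.87, 11.93, 11.97, 11.98 and 12.16 in WT and 11.67, 11.86, 11.93, 12.03 and 12.14 in Crem-/- mice at 12 h. Its levels did not overlap between the times in KO mice and did in WT mice. Acsl5 fell by 0.32 ± 0.062 on the log2 scale (adjusted p = 3.35e-04). Thus 1 of the 4 mitochondrial entry genes rose, 1 fell and 2 were not called, where 18.1% of all probe sets were higher and 21.2% lower.

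In the mitochondrial spiral 2 of 8 genes rose, 1 fell and 5 were not called, where 18.1% of all probe sets were higher and 21.2% lower. Acadl, the long-chain acyl-CoA dehydrogenase, read 11.15, 11.21, 11.22, 11.24 and 11.39 in WT and 10.98, 11.06, 11.14, 11.14 and 11.29 in Crem-/- mice at 0 h, and 11.48, 11.50, 11.62, 11.67 and 11.83 in WT and 11.27, 11.36, 11.44, 11.53 and 11.54 in Crem-/- mice at 12 h. All WT mice at 12 h lay above all WT mice at 0 h, and in KO mice the times overlapped by a single pair. The log2 difference of Acadl was 0.34 ± 0.057 (adjusted p = 5.79e-05). Hadha, the alpha subunit of the trifunctional protein, which carries the hydratase and the long-chain dehydrogenase, averaged 11.55 ± 0.033, 11.47 ± 0.073, 11.74 ± 0.075 and 11.74 ± 0.088 in the WT 0 h, KO 0 h, WT 12 h and KO 12 h mice (SD, n = 5 each). It rose by 0.23 ± 0.043 (adjusted p = 2.13e-04) with no overlap between the times in either genotype. Acaa2, the mitochondrial thiolase of the last step, fell by 0.13 ± 0.041 on the log2 scale (adjusted p = 0.0153), a call that centring removed (-0.057, adjusted p = 0.304). The medium-chain, short-chain and very-long-chain dehydrogenases Acadm, Acads and Acadvl differed by -0.031, 0.069 and -0.082, and the hydratase Echs1 and the hydroxyacyl-CoA dehydrogenase Hadh by -0.082 and 0.026; of these 5 genes none was called with limma as the values stand. Acadvl differed by -0.11 in WT mice, where the times did not overlap, and by -0.052 in KO mice. Echs1 was called in KO mice alone (-0.18 ± 0.060, adjusted p = 0.0407; 0.014 in WT), a call that centring removed (-0.12, adjusted p = 0.189) and that held in 15 of 28 alternatives.

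Among the genes that serve the spiral, Eci2 and Decr2 rose. Eci2, a delta3-enoyl-CoA isomerase found in peroxisomes and mitochondria, read 10.55, 10.59, 10.63, 10.64 and 10.94 in WT and 10.19, 10.55, 10.56, 10.64 and 10.72 in Crem-/- mice at 0 h, and 10.88, 10.97, 11.01, 11.13 and 11.25 in WT and 10.65, 10.97, 11.05, 11.14 and 11.14 in Crem-/- mice at 12 h. In each genotype a single pair of mice kept the times from separating. Its log2 difference was 0.42 ± 0.077 (adjusted p = 1.80e-04), whereas Eci1, the mitochondrial isomerase, differed by 0.011 ± 0.055 (adjusted p = 0.892). Of the dienoyl-CoA reductases, Decr2 of peroxisomes rose by 0.27 ± 0.068 (adjusted p = 0.00283) and Decr1 of mitochondria differed by -0.026 ± 0.063 (adjusted p = 0.769); the difference between the paired genes was not tested. Ech1, the dienoyl-CoA isomerase, differed by -0.12 ± 0.087 (adjusted p = 0.277). Of the electron transfer genes, Etfb, the beta subunit of the flavoprotein, averaged 12.03 ± 0.060, 12.01 ± 0.054, 11.85 ± 0.041 and 11.79 ± 0.037 (SD, n = 5 each) and fell by 0.20 ± 0.039 on the log2 scale (adjusted p = 3.65e-04) with no overlap between the times in either genotype. Its partner subunit Etfa (-0.054) and the ubiquinone oxidoreductase Etfdh (-0.016) were not called. Acad11, an acyl-CoA dehydrogenase assigned to both organelles, rose by 0.19 ± 0.053 (adjusted p = 0.00673).

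Averaged over the genotypes, the genes that bring fatty acids into peroxisomes rose, and Crot and Crat, which pass shortened chains on, fell. Abcd3, which carries long and branched acyl-CoA into the peroxisome, read 11.84, 11.92, 12.09, 12.15 and 12.28 in WT and 12.09, 12.16, 12.21, 12.23 and 12.3163 in Crem-/- mice at 0 h, and 12.40, 12.41, 12.50, 12.50 and 12.53 in WT and 12.3164, 12.37, 12.48, 12.51 and 12.57 in Crem-/- mice at 12 h. The times were apart in WT mice and touched in KO mice, where the highest 0 h and the lowest 12 h value were all but equal, and the log2 difference was 0.33 ± 0.056 (adjusted p = 7.34e-05). Abcd2, which carries very-long-chain and polyunsaturated acyl-CoA, was spread more widely and read 6.50, 7.07, 7.41, 7.64 and 8.41 in WT and 6.44, 6.73, 7.51, 7.57 and 7.64 in Crem-/- mice at 0 h, and 7.55, 7.82, 8.44, 8.92 and 9.78 in WT and 7.01, 7.79, 8.07, 8.64 and 8.86 in Crem-/- mice at 12 h. Its mice overlapped between the times in both genotypes, and its log2 difference of 0.99 ± 0.28 (adjusted p = 0.00803) moved between 0.83 and 1.13 over the alternatives tried. By genotype Abcd2 was not called in KO mice (0.89, adjusted p = 0.123), and its call in WT mice (1.09, adjusted p = 0.0458) held in 11 of 28 alternatives. Slc27a2, a very-long-chain acyl-CoA synthetase that also imports fatty acids, averaged 13.04 ± 0.094, 13.04 ± 0.059, 13.33 ± 0.10 and 13.27 ± 0.11 in the same order of groups (SD, n = 5 each) and rose by 0.26 ± 0.049 (adjusted p = 2.86e-04).

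Crot, the carnitine octanoyltransferase that exports medium chains from the peroxisome, read 12.87, 12.90, 12.92, 12.94 and 13.01 in WT and 12.64, 12.65, 12.66, 12.97 and 12.98 in Crem-/- mice at 0 h, and 11.92, 11.94, 12.09, 12.50 and 12.50 in WT and 11.77, 12.09, 12.10, 12.28 and 12.42 in Crem-/- mice at 12 h. Every 12 h mouse lay below every 0 h mouse, and Crot fell by 0.69 ± 0.088 on the log2 scale (a 1.62-fold lower level; adjusted p = 2.12e-06), with -0.74 in WT and -0.65 in KO mice. Crat, the acetyltransferase of both organelles, read 9.70, 9.72, 9.79, 9.81 and 9.92 in WT and 9.17, 9.46, 9.66, 9.69 and 10.004 in Crem-/- mice at 0 h, and 9.17, 9.38, 9.45, 9.50 and 9.55 in WT and 9.29, 9.34, 9.39, 9.49 and 9.50 in Crem-/- mice at 12 h. In WT mice the times did not overlap, while KO mice at 0 h were spread over most of the range of all mice. Crat fell by 0.29 ± 0.078 (adjusted p = 0.0058). By genotype Crat was not called in KO mice (-0.20, adjusted p = 0.223). Centring removed the call of Crat in WT mice (-0.29, adjusted p = 0.0595). Acot8, the thioesterase that frees acids inside the peroxisome, differed by -0.11 ± 0.060 (adjusted p = 0.164). Pex11a, a membrane protein that drives peroxisome division, averaged 10.22 ± 0.19, 10.01 ± 0.17, 10.48 ± 0.15 and 10.30 ± 0.19 (SD, n = 5 each) and rose by 0.28 ± 0.075 (adjusted p = 0.00593).

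**Figure D2:**
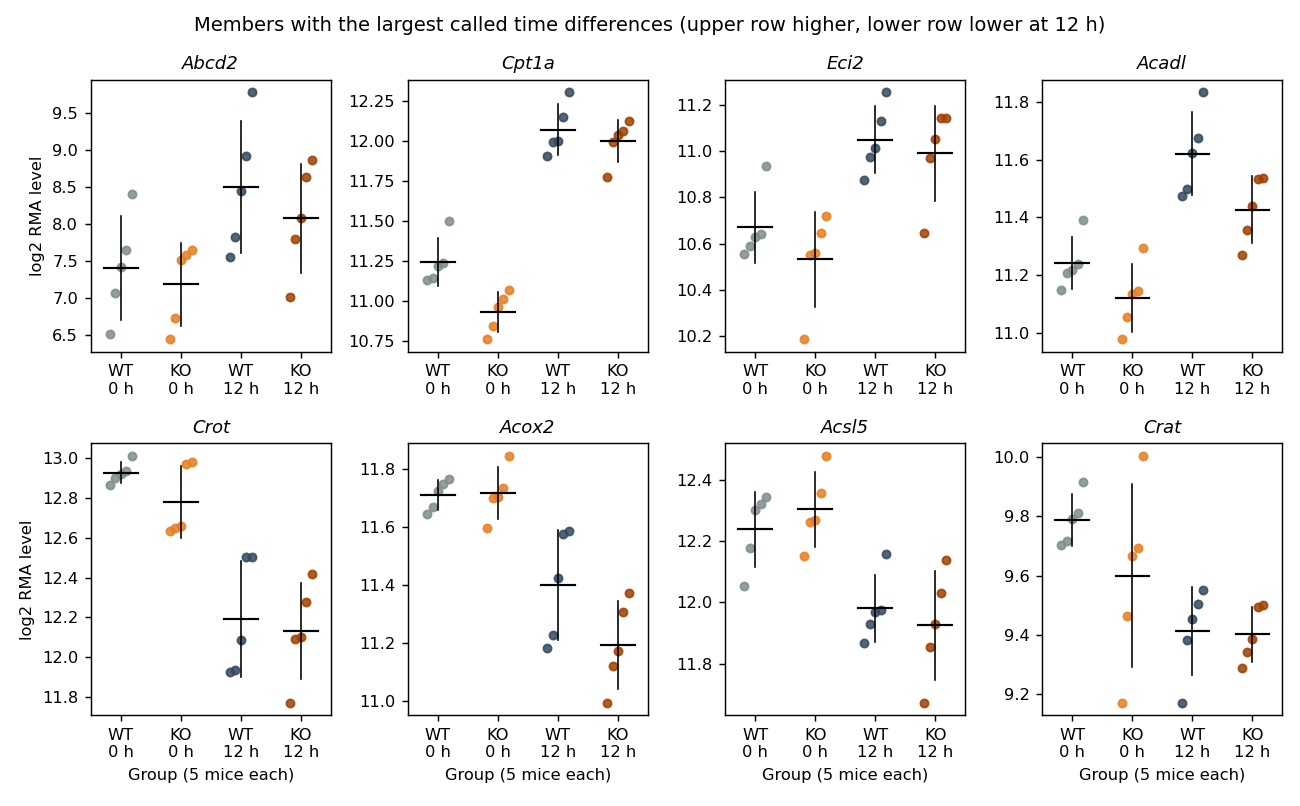
Level (log2 RMA value) of 8 genes in each of the 20 mice by group; each point is a mouse, the wide bar the mean of 5 mice and the thin bar 1 SD to each side. The 4 genes of the upper row (Abcd2, Cpt1a, Eci2 and Acadl) were higher at 12 h and the 4 of the lower row (Crot, Acox2, Acsl5 and Crat) lower, and each panel has its own axis.

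Of the 6 peroxisomal spiral genes none was called higher (18.1% of all probe sets were) and 3 were called lower (21.2% of all). Acox2, an oxidase for bile acid precursors, read 11.64, 11.67, 11.73, 11.75 and 11.77 in WT and 11.60, 11.70, 11.70, 11.74 and 11.85 in Crem-/- mice at 0 h, and 11.18, 11.23, 11.42, 11.58 and 11.59 in WT and 10.99, 11.12, 11.17, 11.31 and 11.37 in Crem-/- mice at 12 h. The times did not overlap in either genotype, and Acox2 fell by 0.42 ± 0.061 on the log2 scale (adjusted p = 1.23e-05), by 0.31 in WT and 0.52 in KO mice. Centring removed the call of Acox2 in WT mice (-0.22, adjusted p = 0.0617) and kept that in KO mice. Scp2, the thiolase and sterol carrier protein, read 13.46, 13.52, 13.63, 13.64 and 13.66 in WT and 13.46, 13.56, 13.61, 13.63 and 13.63 in Crem-/- mice at 0 h, and 13.05, 13.34, 13.36, 13.38 and 13.39 in WT and 13.26, 13.33, 13.47, 13.49 and 13.51 in Crem-/- mice at 12 h. It fell by 0.22 ± 0.053 (adjusted p = 0.00216), and WT mouse 170 of 12 h, at 13.05, lay below all the other mice. By genotype Scp2 was not called in KO mice (-0.17, adjusted p = 0.124). Centring removed the call of Scp2 in WT mice (-0.19, adjusted p = 0.0658). Ehhadh, the bifunctional enzyme for straight chains, averaged 11.62 ± 0.12, 11.52 ± 0.080, 11.45 ± 0.11 and 11.27 ± 0.19 (SD, n = 5 each) and fell by 0.21 ± 0.061 (adjusted p = 0.00812), a call that centring removed (-0.14, adjusted p = 0.0765). Hsd17b4, the bifunctional enzyme for branched chains, differed by -0.0056 ± 0.041 (adjusted p = 0.929). The thiolases Acaa1a and Acaa1b differed by 0.086 ± 0.058 (adjusted p = 0.253) and -0.14 ± 0.069 (adjusted p = 0.122). After centring Acaa1a was called higher (0.16, adjusted p = 0.0325). Acaa1a and Acaa1b are near-identical copies, and whether each probe set reads only its own gene was not tested.

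Transport and spiral of each organelle can be set side by side. The peroxisomal transport genes had a median time difference of 0.26 (3 higher and 1 lower of 5) and the peroxisomal spiral genes one of -0.17 (0 higher and 3 lower of 6). Among all probe sets, 18.1% were higher and 21.2% lower. Of the peroxisomal transport genes Abcd2, Abcd3 and Slc27a2 rose, Crot fell and Acot8 was not called, so their median gives no common direction. For mitochondria the medians were 0.063 for transport (1 higher and 1 lower of 4) and -0.0026 for the spiral (2 higher and 1 lower of 8), the latter becoming 0.043 after quantile normalization and 0.071 after centring. After centring the peroxisomal medians were 0.33 for transport and -0.10 for the spiral. Per mouse, the mean level of the peroxisomal spiral genes was 11.69 to 11.84 in WT mice at 0 h and 11.58 to 11.70 at 12 h, and 11.65 to 11.75 in KO mice at 0 h and 11.46 to 11.65 at 12 h. The mean level of the peroxisomal transport genes overlapped between the times, with 10.58 to 11.01 in WT mice at 0 h and 10.70 to 11.29 at 12 h, and 10.55 to 10.82 in KO mice at 0 h and 10.60 to 11.06 at 12 h. That of the mitochondrial transport genes was 11.30 to 11.45 in WT mice at 0 h and 11.49 to 11.62 at 12 h, and 11.18 to 11.34 in KO mice at 0 h and 11.40 to 11.55 at 12 h. Only Cpt1a rose among these 4 genes: their mean time difference was 0.19, and it was -0.064 over the 3 genes without Cpt1a. These are descriptions of a few genes and were not tested as groups.

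**Figure D3:**
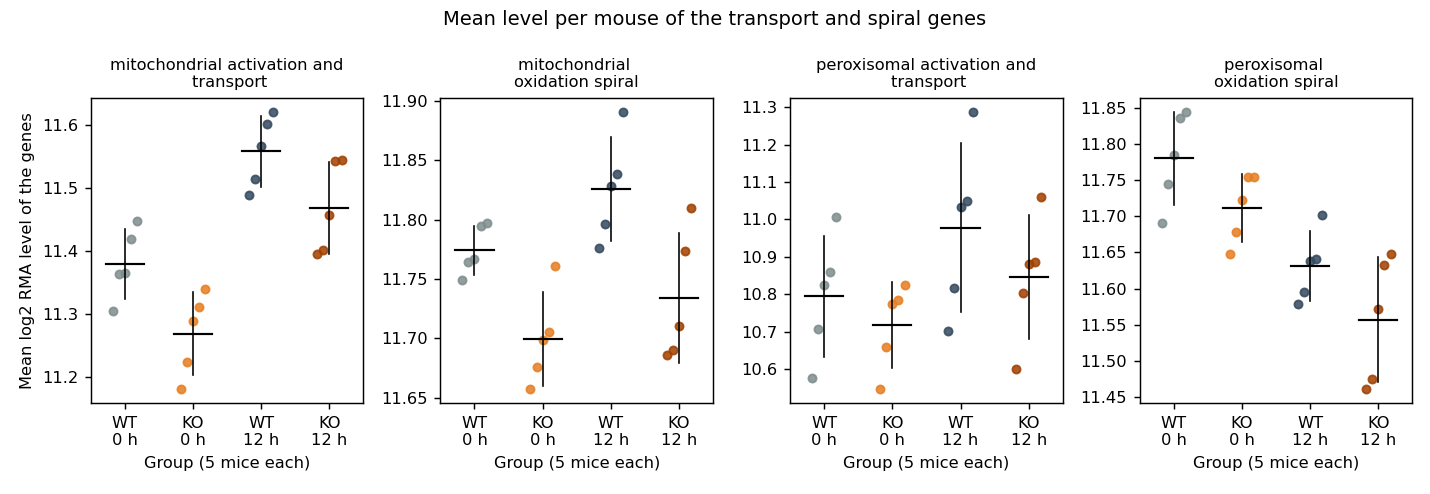
Mean level (log2 RMA value) per mouse of the transport and spiral genes of each organelle, by group; each point is a mouse, the wide bar the mean of 5 mice and the thin bar 1 SD to each side. The group means of the mitochondrial transport genes are higher at 12 h, through Cpt1a (the mean difference of the other 3 genes was -0.064), those of the peroxisomal spiral genes are lower, and the mean of KO mice lies below that of WT mice at each time in every panel; each panel has its own axis.

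Markers of Kupffer cells, the macrophages of the liver, moved with time: 6 of 8 were lower and 1 higher at 12 h, with a median of -0.35, and their mean level was 9.46 to 9.75 in WT and 9.27 to 9.74 in KO mice at 0 h against 8.97 to 9.39 and 9.11 to 9.49 at 12 h. Of the sinusoidal endothelial markers 3 of 8 were higher (median 0.15), and of 9 hepatocyte markers 4 were higher and 1 lower (median 0.013). The counts were 2 higher and 2 lower of 8 stellate cell markers, 1 and 1 of 7 leukocyte and blood markers, 0 and 1 of 5 cholangiocyte and of 4 pancreas markers, and 0 and 0 of 6 fat cell markers. Among all probe sets 18.1% were higher and 21.2% lower at 12 h. The part of these markers in the time differences was not tested.

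The genotype comparison asks how liver without CREM differs. No gene of the pathway was called: limma called 0 of 34 averaged over the times (0.0117% of all probe sets), 0 at 0 h (0% of all) and 0 at 12 h (0.0234% of all), with lowest adjusted p values of 0.349, 0.987 and 0.295. Without adjustment 10, 4 and 6 genes had a p under 0.05, as did 9.88%, 4.47% and 12.5% of all probe sets. Differences were small and mostly on the same side. Averaged over the times, 30 of the 34 genes were lower in KO mice, where 49.3% of all probe sets were, and the median log2 difference was -0.096 against 0.0015 over all probe sets. At 0 h 27 genes and at 12 h 33 genes lay below 0, with medians of -0.084 and -0.074. The genes are measured in the same mice, so they are not independent of each other. They were also chosen with earlier results of these data known. The median was -0.069 after quantile normalization and -0.12 after centring, and it ran from -0.11 to -0.079 as each mouse was left out.

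**Figure D4:**
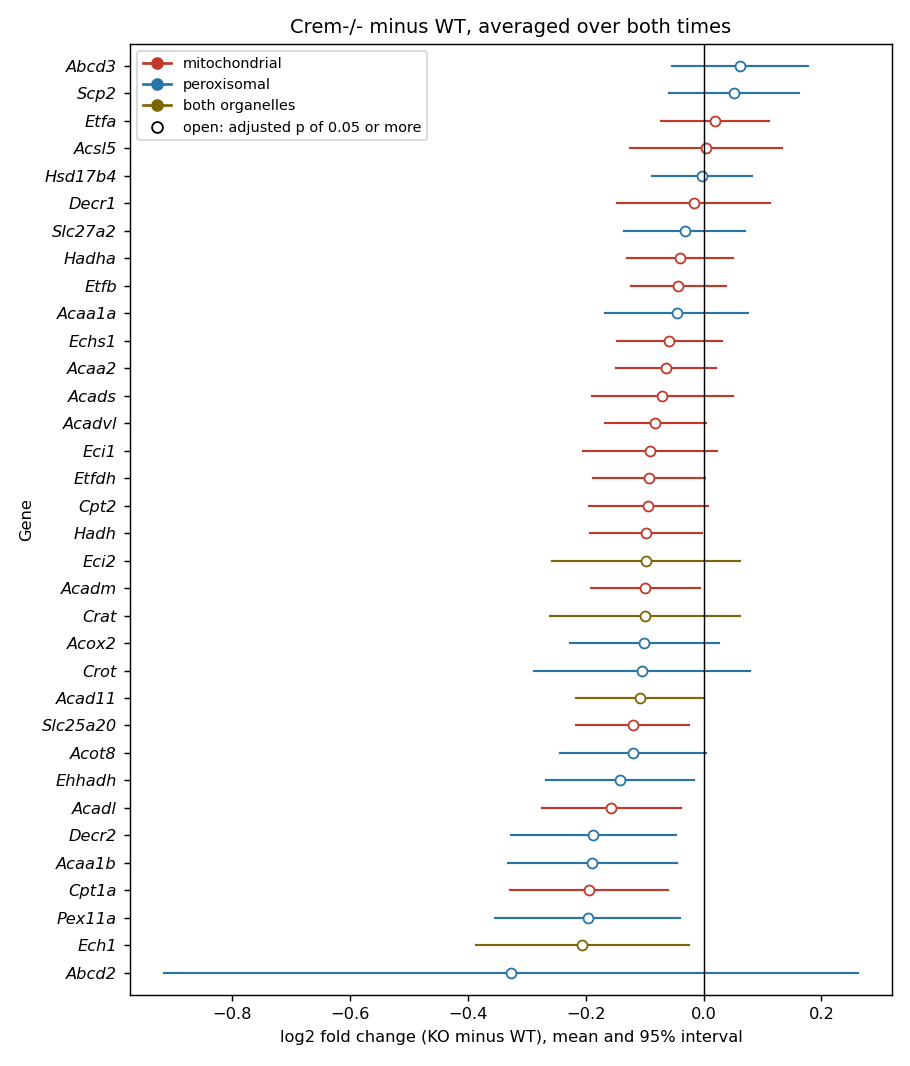
Difference between KO and WT mice (log2 fold change, averaged over 0 h and 12 h; 10 mice of each genotype) for each of the 34 genes, with its 95% interval from limma. Points of 30 genes lie below 0, none reached an adjusted p under 0.05, and the interval of Abcd2 is the widest.

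Mitochondrial and peroxisomal genes are compared here as a description, with no test of the difference. The 17 mitochondrial genes had a median of -0.082 (15 below 0), the 13 peroxisomal genes one of -0.10 (11 below 0) and the 4 genes of both organelles one of -0.10 (4 below 0). Transport genes had a median of -0.10 (8 of 10 below 0) and spiral genes one of -0.082 (14 of 15 below 0). All 8 mitochondrial spiral genes and 5 of the 6 peroxisomal ones were below 0, and of the 4 genes above 0 (Abcd3 0.062, Scp2 0.052, Etfa 0.020 and Acsl5 0.0047) none was called. Acaa2 and Hsd17b4, which lie on the same chromosome as Crem, differed by -0.063 and -0.0029.

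Within the 5 batches the median KO minus WT difference of the 34 genes was -0.094, -0.075, -0.0080, -0.048 and -0.074, with 30, 24, 18, 20 and 33 genes below 0. Each of the first 4 batches, which hold the 0 h mice, had 2 or 3 mice, and the last had 10. For the 13 peroxisomal genes the medians were -0.13, -0.065, 0.011, 0.026 and -0.096, so that their sign turned in batches 3 and 4, and for the 17 mitochondrial genes they were -0.062, -0.084, -0.012, -0.075 and -0.072. The mean level of all 34 genes was 11.40 to 11.50 in WT and 11.31 to 11.41 in KO mice at 0 h, and 11.42 to 11.58 in WT and 11.32 to 11.50 in KO mice at 12 h. The genotypes overlapped in this mean at both times.

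At the entry to mitochondria, the levels of Cpt1a listed above put all 5 KO mice below all 5 WT mice at 0 h, while at 12 h the genotypes overlapped. Its KO minus WT difference was -0.32 ± 0.091 at 0 h (adjusted p = 0.987, limma), -0.072 ± 0.091 at 12 h and -0.19 ± 0.065 on average (adjusted p = 0.349), and it was below 0 in each of the 5 batches. Slc25a20 read 11.36, 11.41, 11.42, 11.45 and 11.58 in WT and 11.23, 11.30, 11.37, 11.39 and 11.39 in Crem-/- mice at 0 h, and 11.44, 11.47, 11.48, 11.49 and 11.50 in WT and 11.17, 11.29, 11.35, 11.43 and 11.46 in Crem-/- mice at 12 h. Its highest KO mouse stood within the WT range at each time, and the average difference was -0.12 ± 0.046 (adjusted p = 0.418), below 0 in each of the 5 batches. Cpt2 averaged 10.59 ± 0.12, 10.51 ± 0.10, 10.70 ± 0.069 and 10.61 ± 0.066 (SD, n = 5 each) and differed by -0.094 ± 0.049 (adjusted p = 0.536). In the mitochondrial spiral Acadl differed by -0.16 ± 0.057 (adjusted p = 0.393) and Acadm by -0.099 ± 0.044 (adjusted p = 0.477). Acadm, added after its values were seen, did separate the genotypes at 12 h, with 12.28, 12.31, 12.32, 12.35 and 12.36 in WT and 12.10, 12.13, 12.20, 12.21 and 12.27 in KO mice, and did not at 0 h. None of the 34 genes was called at 12 h by limma (lowest adjusted p = 0.295). How many of all probe sets separate the genotypes as Cpt1a and Acadm did was not counted.

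After Abcd2, the largest average differences were those of Ech1 and Pex11a. Ech1, the isomerase found in both organelles, read 11.34, 11.63, 11.76, 11.96 and 11.98 in WT and 11.01, 11.35, 11.39, 11.66 and 11.69 in Crem-/- mice at 0 h, and 11.30, 11.46, 11.57, 11.59 and 11.61 in WT and 11.22, 11.39, 11.45, 11.48 and 11.49 in Crem-/- mice at 12 h. The genotypes overlapped at both times, and its difference was -0.21 ± 0.087 (adjusted p = 0.447). Decr2 read 11.71, 11.84, 11.98, 11.99 and 12.13 in WT and 11.44, 11.63, 11.64, 11.75 and 11.98 in Crem-/- mice at 0 h, and 11.91, 12.15, 12.18, 12.20 and 12.31 in WT and 11.88, 12.03, 12.03, 12.06 and 12.07 in Crem-/- mice at 12 h. It too overlapped at both times and differed by -0.19 ± 0.068 (adjusted p = 0.392), below 0 in each of the 5 batches. Pex11a read 10.04, 10.10, 10.14, 10.32 and 10.50 in WT and 9.74, 9.99, 10.02, 10.07 and 10.22 in Crem-/- mice at 0 h, and 10.27, 10.43, 10.47, 10.55 and 10.68 in WT and 10.0007, 10.26, 10.36, 10.39 and 10.50 in Crem-/- mice at 12 h. The lowest mouse was a KO mouse at each time and the highest a WT mouse, with a difference of -0.20 ± 0.075 (adjusted p = 0.418).

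Acaa1b read 11.32, 11.54, 11.62, 11.73 and 11.75 in WT and 11.11, 11.18, 11.39, 11.45 and 11.46 in Crem-/- mice at 0 h, and 11.29, 11.31, 11.37, 11.38 and 11.49 in WT and 11.08, 11.16, 11.17, 11.39 and 11.53 in Crem-/- mice at 12 h. KO mice lay mostly in the lower part of the range at 0 h and across it at 12 h, and the average difference was -0.19 ± 0.069 (adjusted p = 0.397). Its copy Acaa1a averaged 9.99 ± 0.15, 9.94 ± 0.11, 10.07 ± 0.073 and 10.03 ± 0.15 (SD, n = 5 each) and differed by -0.045 ± 0.058 (adjusted p = 0.821), with a sign at 12 h (-0.040) that turned after quantile normalization (0.0039) and without KO mouse 166 (0.021). Ehhadh differed by -0.14 ± 0.061 (adjusted p = 0.451). Abcd2 had the largest difference and the largest error, -0.33 ± 0.28 (95% interval -0.92 to 0.26; adjusted p = 0.714), and at 0 h its sign turned without WT mouse 147 (-0.23 with that mouse and 0.024 without it).

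**Figure D5:**
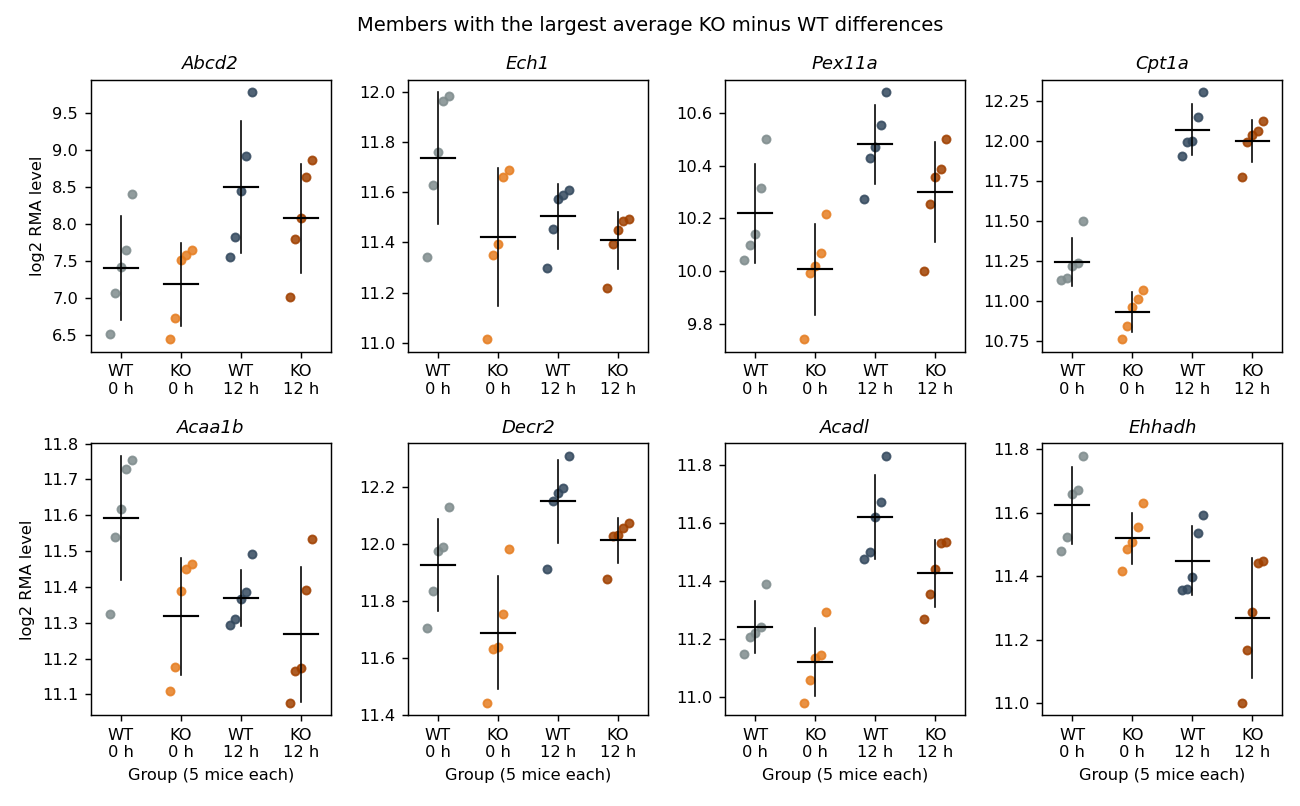
Level (log2 RMA value) in each of the 20 mice of the 8 genes with the largest average KO minus WT difference; each point is a mouse, the wide bar the mean of 5 mice and the thin bar 1 SD to each side. Cpt1a at 0 h is the only gene and time among these panels where WT and KO mice do not overlap, a difference that limma did not call (adjusted p = 0.987). How many of all probe sets separate in this way was not counted, and each panel has its own axis.

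Whether time acted differently in the genotypes was tested with the interaction. No member was called (0 of 34, and 0% of all probe sets), and limma gave 1 member and 1757 probe sets an unadjusted p under 0.05. That member was Echs1, the short-chain hydratase, with -0.19 ± 0.085 (adjusted p = 0.706). Echs1 read 11.29, 11.31, 11.34, 11.38 and 11.41 in WT and 11.34, 11.35, 11.41, 11.41 and 11.41 in KO mice at 0 h and 11.32, 11.32, 11.34, 11.39 and 11.43 in WT and 11.08, 11.14, 11.22, 11.22 and 11.37 in KO mice at 12 h. The KO mice at 12 h reached the lowest values of this gene, and 1 of them lay within the WT range. Cpt1a had the largest interaction, 0.24 ± 0.13 (95% interval -0.025 to 0.51; adjusted p = 0.752), and Acox2 the lowest, -0.21 ± 0.12 (adjusted p = 0.774).

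Markers of other cells were also compared between the genotypes. All 8 sinusoidal endothelial markers lay below 0 in KO mice (median -0.14, 5 with an unadjusted p under 0.05 where 9.88% of all probe sets had one, none called, lowest adjusted p = 0.135), with mean levels of 9.55 to 9.65 in WT and 9.40 to 9.61 in KO mice at 0 h and 9.56 to 9.94 and 9.41 to 9.70 at 12 h. Medians were -0.014 for 9 hepatocyte markers, -0.014 for 8 Kupffer cell markers, -0.090 for 8 stellate cell markers, -0.057 for 5 cholangiocyte markers, 0.080 for 7 leukocyte and blood markers, -0.052 for 6 fat cell markers and 0.028 for 4 pancreas markers, and no marker of these lists was called. Their part in the genotype difference was not tested.

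Other genes around the pathway were followed in lists of their own. For genotype, limma called none of the measured genes of 5 neighbouring lists, whose medians were -0.10 for carnitine supply (4 genes), -0.032 for malonyl-CoA control (3 genes), -0.061 for other mitochondrial oxidation (14 genes), -0.028 for other peroxisomal oxidation (15 genes) and -0.33 for other PPAR alpha targets (18 genes, 15 of them below 0 and 11 with an unadjusted p under 0.05, against 49.3% and 9.88% of all probe sets). With time, the carnitine transporters Slc22a5 (0.78) and Slc22a21 (0.43) rose, which made 2 of the 4 carnitine genes. Mlycd, which breaks down malonyl-CoA, the inhibitor of CPT1, rose by 0.33, and Acaca, which makes it, by 0.48. Acacb, the remaining gene of the 3 in malonyl-CoA control, was not called (0.029, with -0.17 in KO and 0.23 in WT mice). Of the other mitochondrial genes 4 rose and 1 fell, with Acad12 at 0.44. Of the other peroxisomal genes 4 rose and 7 fell, among them Aldh3a2, a fatty aldehyde dehydrogenase, at 0.36 and Hacl1, a lyase of alpha-oxidation, at -0.61. Of the other PPAR alpha targets 6 rose and 4 fell, from Cyp4a31 at 1.87 to Pdk4, the kinase that restrains pyruvate oxidation, at -1.43. With time 18.1% of all probe sets were higher and 21.2% lower.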

How the data were processed

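The deposited values are log2 expression values per probe set of whole liver RNA on Affymetrix Mouse Gene 1.0 ST arrays, which the authors normalized by RMA (named without a version in the submitters' processing notes); the sources used here do not state whether all 20 livers were normalized together. RMA brings arrays to a common distribution, so a shift shared by most genes would be reduced in these values. Of 35557 probe sets, 9868 had no value and 25689 were tested. Groups, times and batches came from the labels. Genes were named from the platform annotation, and the RefSeq gene table (GRCm38.p6) changed 0 of the members' symbols. The members and all gene lists were chosen with earlier results of these data known. Group means were fitted over all 20 arrays with limma 3.58.1 (R 4.3.3; lmFit and eBayes), 7 contrasts were taken, and p-values were adjusted by Benjamini-Hochberg over all probe sets, with a threshold of 0.05. All members could be named; per-mouse or group values are given for the called genes with the largest time differences (up to 6 in each direction, averaged and in each genotype), the 8 with the largest average genotype difference, the carnitine shuttle genes and both Acaa1 genes; Acadm was added after its values were seen. Genes of other lists are named where called, up to 4 a list, and Acacb is named though it was not called. With 5 mice a group, an exact two-sided permutation test of one gene cannot go below 0.00794. The script was tested on simulated data. Alternatives were other arrays in the fit, batch as a block, a filter on dim probe sets, quantile normalization, centring, another variance prior, array weights and leaving out mice. Protein sequences were not used here.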

Additional observations from a re-analysis of the deposited data

Results flagged for a closer look

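In each group of 5 mice the highest or lowest value of each gene was set against the others by Dixon's ratio, over 136 groups of values (34 genes in 4 groups), of which chance alone would mark about 1 in 20. In 4 of the 136 a mouse stood apart, fewer than that share. WT mouse 78 had the highest Cpt1a at 0 h (11.50, the other 4 mice 11.13 to 11.24). WT mouse 146 had the highest Eci2 at 0 h (10.94, the others 10.55 to 10.64). KO mouse 110 had the lowest Decr2 at 12 h (11.88, the others 12.03 to 12.07). WT mouse 170 had the lowest Scp2 at 12 h (13.05, the others 13.34 to 13.39).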

How the results depend on the processing

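No paired analysis was possible because mouse numbers differ between all groups. The number of members called for genotype (averaged, at 0 h and at 12 h) and for the interaction was 0 in every alternative run, and over all probe sets the 12 h genotype count of 6 became 23 among bright probe sets, 23 after centring, 11 with another variance prior, 3 with batch as a fixed block, 2 after quantile normalization or with array weights, 0 with only the arrays compared, and 1 to 37 as each mouse was left out, while the averaged count of 3 became 1 among bright probe sets and 2 to 9 as mice were left out. Centring each array moved the median time difference of the members from -0.011 to 0.062 on average, from 0.017 to 0.10 in WT and from -0.018 to 0.042 in KO mice, by construction, since the arrays' medians fell by 0.073 from 0 h to 12 h. Leaving out 1 mouse at a time, the members called by time numbered 18 to 19 on average, 9 to 14 in WT (9 without mouse 111) and 9 to 15 in KO mice (9 without mouse 143 or 109). Over all 25689 probe sets the same runs called 9413 to 10180 on average, 5857 to 7140 in WT and 4463 to 5472 in KO mice. The genotype median ran from -0.11 to -0.079 on average, -0.11 to -0.073 at 0 h and -0.11 to -0.061 at 12 h, and the interaction median, -0.020, from -0.039 to 0.012, and it was 0.027 after quantile normalization. The time medians ran from -0.024 to 0.0013 on average, 0.0051 to 0.040 in WT and -0.064 to -0.00048 in KO mice, where quantile normalization gave 0.025. Of 1936 recomputed values of single genes, 1867 kept their direction and their side of the threshold, 66 lost their call and 3 turned sign. Acaa1a between genotypes at 12 h was 0.0039 after quantile normalization. As mice were left out it ran from -0.075 to 0.021, the highest without KO mouse 166. Abcd2 between genotypes at 0 h ran from -0.45 to 0.024, the highest without WT mouse 147. The cause was not tested. For time, these values cover only the called genes with the largest differences. Cpt2, Acads, Acaa1a and Acaa2, whose averaged time call changed on centring, are not among them. For genotype, they cover the genes with the largest average difference, the carnitine shuttle genes and both Acaa1 genes. For the interaction, they cover Cpt1a. Genotype and interaction values had no call to lose. Without WT mice 80 and 170, left out because earlier results set them apart, 10 members were called by time in WT. The count over all probe sets in that run is not given here. Each gene had 1 probe set, so no choice among probe sets arose. Precision is limited by 5 arrays a group, and the values carry no measure of background.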

Other observations

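Regulators of the pathway were followed in a list of their own. Of 10 measured, 7 were higher and 2 lower at 12 h by limma: Lpin1, a coactivator and phosphatidate phosphatase, by 2.81 on the log2 scale, Ppara, which encodes PPAR alpha, by 0.86, and the coactivators Ppargc1b and Ppargc1a by 0.61 and 0.56, while Ppard fell by 0.76. Of 15 genes for making peroxisomes 5 were higher, with Pex26 at 0.74 and Pex6 at 0.47, and 1 was lower, Pex2 at -0.28. Of all probe sets 18.1% were higher and 21.2% lower at 12 h. Between the genotypes limma called none of either list; 1 regulator and 2 peroxisome genes had an unadjusted p under 0.05 (9.88% of all probe sets had one), and their medians were -0.076 and -0.077.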
